A study of Danio rerio with 12 samples.

Results

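The cone opsin genes of the zebrafish were examined in whole 6 dpf larvae of 4 lines. They were chosen by name: the red opsins opn1lw1 and opn1lw2, the green opsins opn1mw1 to opn1mw4, the UV opsin opn1sw1, which is listed under the symbol OPN1SW, and the blue opsin opn1sw2. These 8 names matched 8 of 31261 gene identifiers. Of the 8 genes, 6 had at least 1 count in every library and were tested, and opn1mw3 and opn1mw4 were not.

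The lines were the Tupfel long fin wild type (TL), panx1a-/-, panx1b-/- and a line lacking both genes (double knock-out). Each was represented by 3 libraries, 12 in all. The panx1b-/- line was made with TALENs and descends from 1 founder with a frameshifting deletion. All larvae were of the same age and are labelled as untreated and in light, and each library was made from an independent pool of larvae. Each genotype is a single line, so that differences in genetic background, rearing or time of collection cannot be told apart from the genotype.

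Colour vision in zebrafish begins in 4 types of cone, each of which expresses its own class of opsin, the protein that absorbs light. An activated opsin switches on transducin, which drives a phosphodiesterase, lowers cGMP and closes cyclic nucleotide-gated channels. The red and the green opsins each arose from tandem gene duplications, and their copies come into use at different stages and in different regions of the retina. Pannexin 1, which the lines lack in its a form, its b form or both, forms ATP-permeable channels in the retina and elsewhere.

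The libraries held 20581029 to 29259122 counts (median 22229812) and 26956 to 27293 genes with a count. The cone opsin genes took 9225 to 23266 of these counts, or 0.0445% to 0.1101% of a library. Libraries of the same line differed by more than sampling noise in every case and were kept as separate samples. The difference relative to sampling noise, as chi-square per degree of freedom, was 2.845 between double knock-out libraries 2 and 3. It was 10.16 to 24.63 for every other pair of the same line. Of the 2 identifiers with the symbol PANX1, ENSDARG00000025285 was lower than in TL by 1.61 on the log2 scale in panx1a-/- and by 1.62 in the double knock-out (edgeR, adjusted p = 6.74e-05 and 2.66e-05). ENSDARG00000014910 differed from TL by a log2 fold change of 0.15 in panx1b-/- (adjusted p = 0.644), and the names do not tell which identifier is panx1a and which is panx1b. ENSDARG00000025285 had −0.44 in panx1b-/- (adjusted p = 0.0398, not called), with all 3 libraries below TL. A frameshift need not lower the RNA, so neither value checks the panx1b label.

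Levels are given as CPM, the counts of a gene scaled to the size of its library, after TMM normalization. They are not corrected for gene length, so a level is compared between libraries and not between genes. A gene was taken as changed at a Benjamini-Hochberg adjusted p under 0.05 over all genes tested together with a p under 0.001. In a pool of whole larvae, fewer cells of a type and less RNA per cell cannot be told apart.

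The red opsin opn1lw2 had 203, 285 and 316 CPM in the 3 TL libraries and 157, 181 and 227 CPM in panx1a-/-. It had 279, 323 and 354 CPM in panx1b-/- and 283, 435 and 365 CPM in the double knock-out. Every library of the double knock-out and of panx1b-/- lay above every library of panx1a-/-, and TL overlapped each of the other lines.

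The UV opsin OPN1SW had 201, 286 and 259 CPM in TL, 150, 195 and 223 CPM in panx1a-/-, 224, 289 and 275 CPM in panx1b-/-, and 268, 358 and 335 CPM in the double knock-out. The blue opsin opn1sw2 had 54.0, 71.7 and 70.4 CPM in TL, 35.1, 50.8 and 58.7 CPM in panx1a-/-, 64.7, 84.0 and 71.5 CPM in panx1b-/-, and 67.9, 89.2 and 83.5 CPM in the double knock-out. Both genes had their lowest mean in panx1a-/- and their highest in the double knock-out, and neither line's libraries separated from TL.

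The green opsin opn1mw1 had 85.6, 149 and 133 CPM in TL, 86.6, 107 and 131 CPM in panx1a-/-, 136, 182 and 203 CPM in panx1b-/-, and 146, 193 and 184 CPM in the double knock-out. The 6 libraries without an intact panx1b gene all lay above the 3 of panx1a-/-. They overlapped with TL, whose first library was the lowest of the 12 for this gene.

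**Figure D1:**
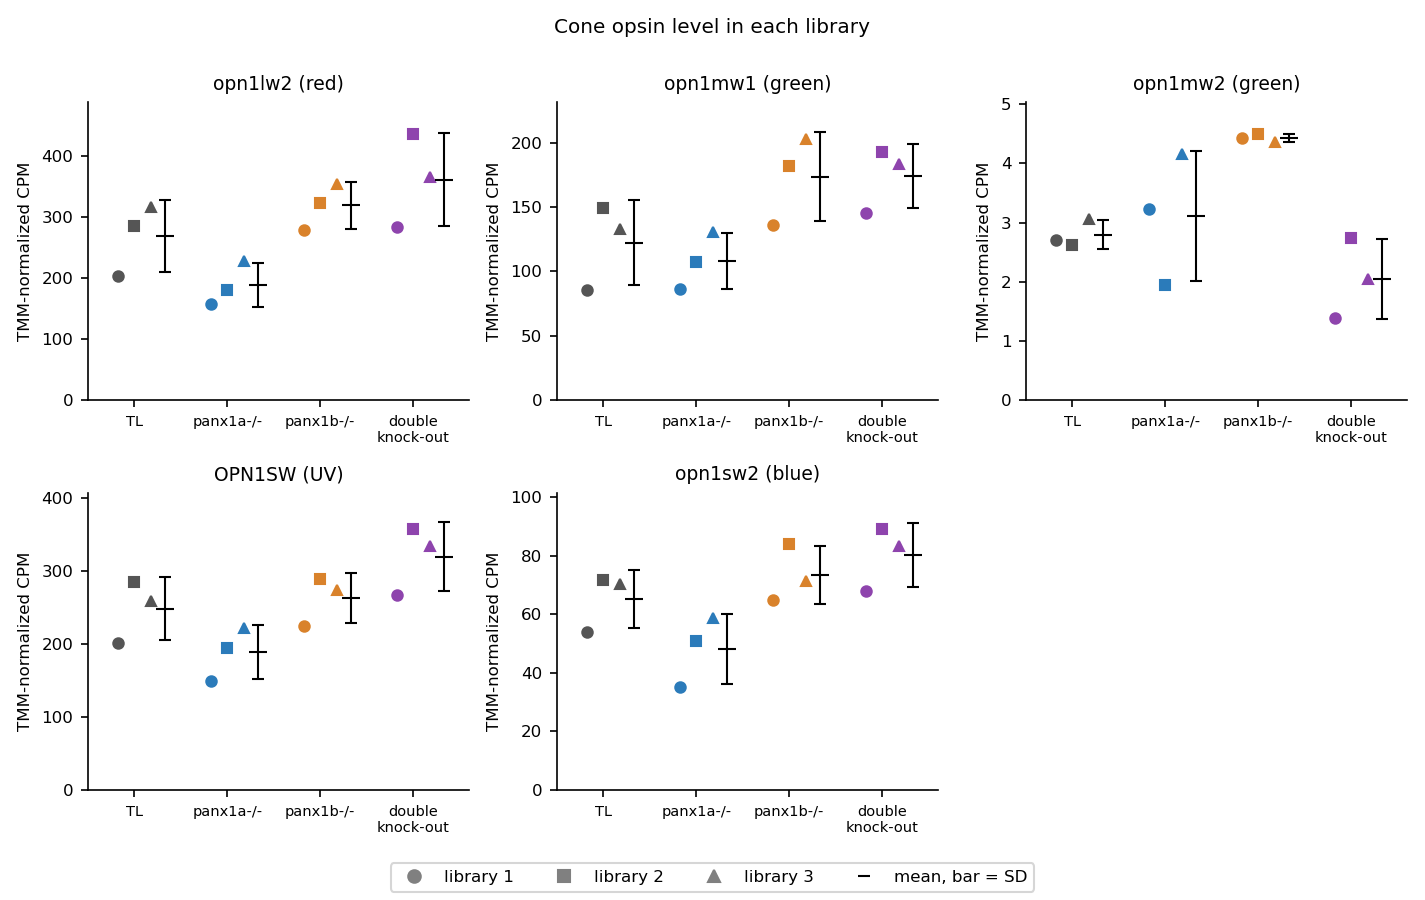
TMM-normalized CPM of 5 cone opsin genes (vertical axes, each from 0) in the 12 libraries, by line, with the mean and SD of each line. The 3 double knock-out libraries lie above the 3 panx1a-/- libraries for opn1lw2, opn1mw1, OPN1SW and opn1sw2, and those of opn1mw2 lie below the panx1b-/- libraries.

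The ordering of the lines by mean was alike for opn1lw2, OPN1SW and opn1sw2. For opn1lw2 the means were 188 ± 35.7 CPM in panx1a-/-, 268 ± 58.5 CPM in TL, 318 ± 38.0 CPM in panx1b-/- and 361 ± 75.9 CPM in the double knock-out (SD, n = 3). For OPN1SW they were 189 ± 36.7, 249 ± 43.0, 263 ± 34.1 and 320 ± 46.8 CPM in the same order. In both genes the libraries of each line overlapped with those of its neighbours in this order, and panx1a-/- overlapped neither with panx1b-/- nor with the double knock-out.

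The clearest difference among the lines lay between the double knock-out and panx1a-/-, which differ in the panx1b gene. There 4 of 6 opsin genes tested passed the cut-offs, 1 of each class and all higher in the double knock-out, where 6.34% of all genes tested passed in either direction and 2.58% were called higher. The red opsin opn1lw2 was 1.92-fold higher (log2 fold change 0.94, SE 0.16, edgeR, adjusted p = 0.00254). The UV opsin OPN1SW was 1.69-fold higher (log2 fold change 0.76, SE 0.145, adjusted p = 0.00512). The blue opsin opn1sw2 was 1.66-fold higher (0.73, SE 0.157, adjusted p = 0.00977) and the green opsin opn1mw1 was 1.61-fold higher (0.69, SE 0.143, adjusted p = 0.00837). These 4 of 6 were also the opsin genes whose libraries did not overlap between the lines, against 30.9% of all genes tested. The low green copy opn1mw2 had a log2 fold change of −0.60 there, with a 95% interval from −1.18 to −0.02 and an adjusted p of 0.212.

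These 4 calls rested on few libraries and were not independent of each other. The 4 genes varied in step between libraries, with Pearson's r of 0.84 to 0.96 after each line's mean was taken off. Double knock-out libraries 2 and 3 were more alike than any other pair of the same line. The part of this likeness in the p-values was not tested beyond leaving each library out. Without the second or without the third double knock-out library only opn1lw2 still passed, with adjusted p = 0.0123 and 0.0171. The fold changes of the other 3 genes were then 0.61 to 0.73 on the log2 scale, with adjusted p from 0.0278 to 0.0534. Over all genes these fits called 985 and 880, against 1583 with every library of the 2 lines. Without the first panx1a-/- library opn1mw1 did not pass (adjusted p = 0.0289), nor did it when all 12 libraries were fitted together (adjusted p = 0.036), which left 3 calls.

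Against TL itself, none of the cone opsin genes passed the cut-offs in any of the 3 mutant lines. In panx1a-/- 0 of 6 were called, where 5.18% of all genes tested were, and 3 of 6 had an unadjusted p under 0.05. Those were the red, UV and blue opsins, with log2 fold changes of −0.51 for opn1lw2 (SE 0.17, adjusted p = 0.0922), −0.40 for OPN1SW (SE 0.158, adjusted p = 0.155) and −0.44 for opn1sw2 (SE 0.17, adjusted p = 0.144). No opsin gene separated panx1a-/- from TL, against 28.5% of all genes tested. Without the first TL library, which had the least opsin in that line, opn1lw2 passed with a log2 fold change of −0.68 (adjusted p = 0.0219). DESeq2 called 0 of 6 in this comparison.

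In panx1b-/- 0 of 6 were called, against 5.96% of all genes tested, and 2 had an unadjusted p under 0.05. These were the green opsins. The less abundant copy opn1mw2 had an adjusted p of 0.0278 without reaching the cut-off on p, and opn1mw1 had an adjusted p of 0.14. In 1 of 6 genes, opn1mw2, the libraries of panx1b-/- and TL did not overlap, where 29.6% of all genes tested did not. DESeq2 called 0 of 6 here as well. With the library number as a block in the fit, opn1mw1 passed (edgeR, adjusted p = 0.0107).

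In the double knock-out 0 of 6 were called against TL, where 8.09% of all genes tested were, and 3 had an unadjusted p under 0.05. The log2 fold changes were 0.43 for opn1lw2 (95% interval 0.07 to 0.79, adjusted p = 0.133), 0.51 for opn1mw1 (0.14 to 0.87, adjusted p = 0.087) and 0.37 for OPN1SW (0.07 to 0.66, adjusted p = 0.119). The blue opsin opn1sw2 had 0.30 (0.03 to 0.56, adjusted p = 0.16). In 0 of 6 genes were the libraries of the lines apart, against 35.4% of all genes tested. DESeq2 called 0 of 6. With the library number as a block in the fit, opn1mw1 passed (edgeR, adjusted p = 0.00323).

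The single knock-outs were set against each other as well. Of 6 genes 1 was called, the red opsin opn1lw2, which was lower in panx1a-/- than in panx1b-/- by 0.75 on the log2 scale (SE 0.141, adjusted p = 0.00366), where 8.87% of all genes tested were called. The adjusted p was under 0.05 for 4 of 6. Besides opn1lw2 these were opn1mw1 (log2 fold change −0.68, adjusted p = 0.0149), opn1sw2 (−0.60, adjusted p = 0.0246) and OPN1SW (−0.47, adjusted p = 0.0447). In 6 of 6 genes the libraries of the 2 lines did not overlap, with panx1a-/- below panx1b-/- in each, against 35.4% of all genes tested. Without the first panx1a-/- library or the second panx1b-/- library no gene passed, and opn1lw2 then had adjusted p = 0.0163 and 0.0149. Without the third panx1a-/- library 3 genes passed, without the first panx1b-/- library 2 did, and DESeq2 called 3. Over all genes these 3 fits called 1493, 1801 and 2704, against 2209 in the main fit. This comparison and that of the double knock-out with panx1a-/- use the same 3 panx1a-/- libraries.

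**Figure D2:**
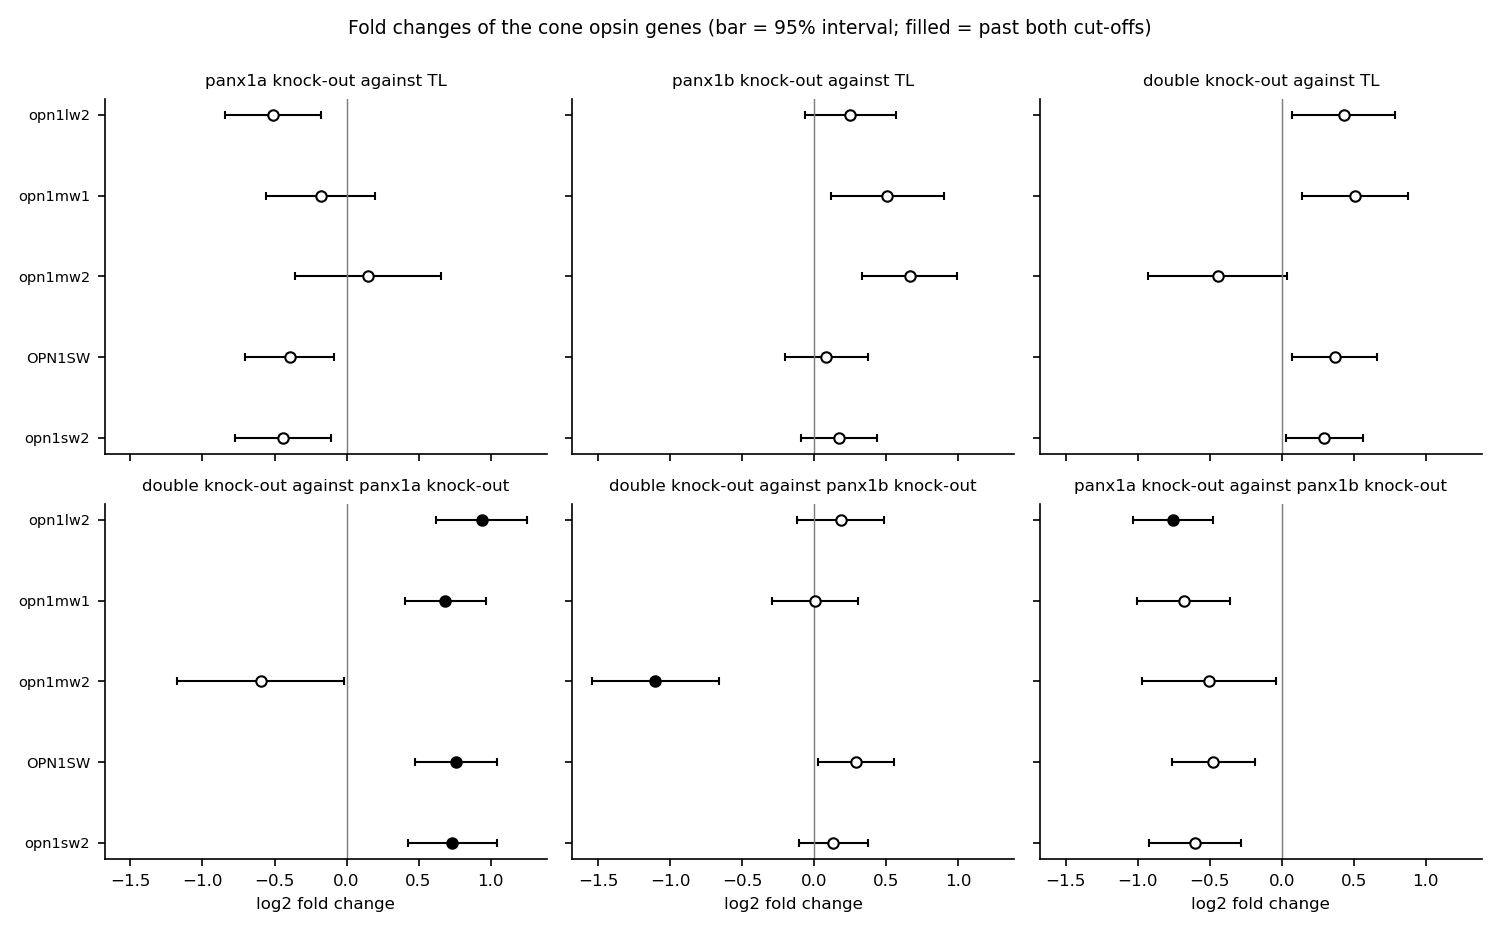
Log2 fold change (horizontal axes) of 5 cone opsin genes in the 6 comparisons of lines, with bars for the 95% interval from edgeR's standard error; filled points passed both cut-offs. Filled points are opn1lw2, opn1mw1, OPN1SW and opn1sw2 in the double knock-out against panx1a-/-, opn1mw2 in the double knock-out against panx1b-/-, and opn1lw2 in panx1a-/- against panx1b-/-, and no point is filled in the 3 comparisons with TL.

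Whether the effect of the double loss differed from the sum of the single losses was tested over all 12 libraries. No opsin gene of 6 was called, where 5.33% of all genes tested were, and 4 had an unadjusted p under 0.05. The interaction was −1.25 on the log2 scale for opn1mw2 (SE 0.361, adjusted p = 0.0408), 0.68 for OPN1SW (SE 0.226, adjusted p = 0.0747), 0.69 for opn1lw2 (SE 0.254, adjusted p = 0.108) and 0.57 for opn1sw2 (SE 0.234, adjusted p = 0.154). DESeq2 called 0 of 6. Without the second panx1a-/- library opn1mw2 passed, which made 1 call. With the library number as a block in the fit 3 passed, opn1lw2, OPN1SW and opn1sw2.

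Within the cone opsin counts of each library the classes were set against each other, a measure on which the normalization has no bearing. Red opsin took 37.9 ± 2.36% of these counts in TL, 35.2 ± 1.33% in panx1a-/-, 38.3 ± 1.51% in panx1b-/- and 38.3 ± 1.78% in the double knock-out (SD, n = 3). Blue opsin was the smallest class throughout, with 9.30 ± 0.487%, 8.91 ± 0.707%, 8.84 ± 0.860% and 8.59 ± 0.294% in the same order. The red share was lower in all 3 panx1a-/- libraries than in those of panx1b-/- and the double knock-out, and overlapped with TL. The blue share was lower in all 3 double knock-out libraries than in TL, and the other lines overlapped. The shares count reads and carry no correction for transcript length, so they compare lines and not the abundance of one class with another.

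Green opsin took 16.1, 19.1 and 17.4% in TL, 20.8, 20.4 and 21.0% in panx1a-/-, 19.8, 21.1 and 22.8% in panx1b-/-, and 19.2, 18.1 and 19.2% in the double knock-out. The 6 libraries of the single knock-outs, from 19.8% upward, lay above all 3 of TL and all 3 of the double knock-out. The latter overlapped with TL.

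UV opsin took 36.8, 36.0 and 33.1% in TL, 34.7, 36.4 and 34.6% in panx1a-/-, 31.7, 32.8 and 30.3% in panx1b-/-, and 35.0, 33.2 and 34.5% in the double knock-out. The 3 panx1b-/- libraries lay below the 9 others, which overlapped among themselves. A share depends on the other classes, so a lower share need not be a lower level. The level of OPN1SW in panx1b-/- had a log2 fold change of 0.08 against TL. These shares were described without a test, because they are scores over a chosen list.

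**Figure D3:**
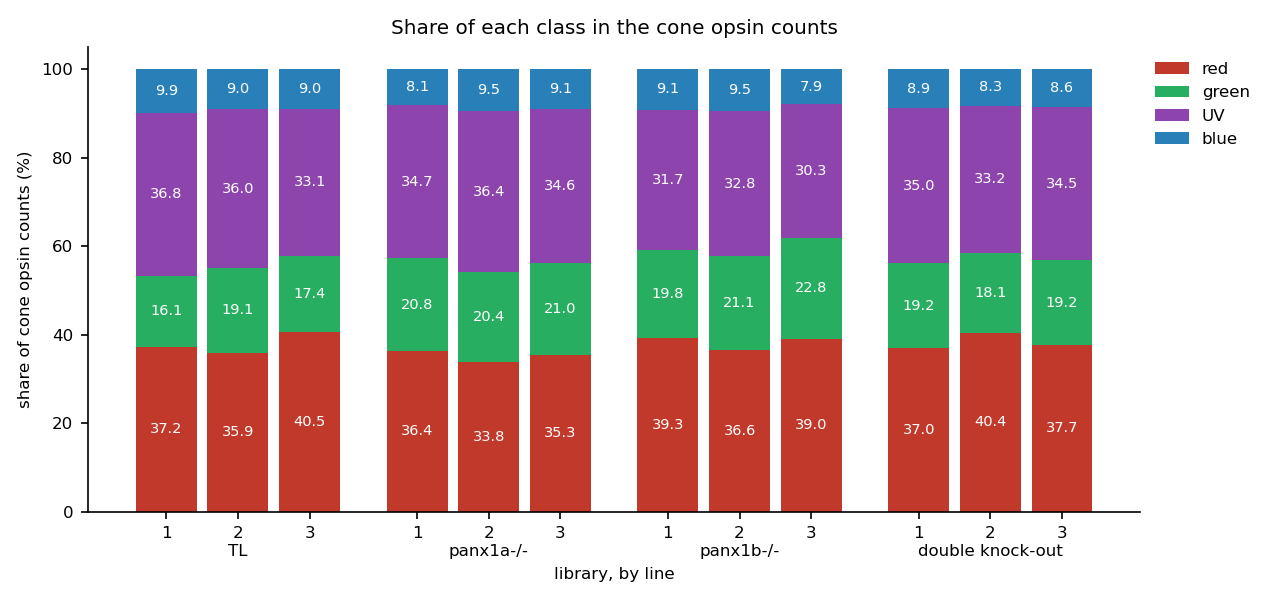
Share of each class in the cone opsin counts of each of the 12 libraries (vertical axis, percent), by line; each bar adds up to all cone opsin counts of a library. The UV segment is 30.3% to 32.8% in panx1b-/- and 33.1% to 36.8% in TL, and the green segment is 16.1% to 19.1% in TL and 19.8% to 22.8% in panx1b-/-.

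The summed cone opsin level was 547 to 794 CPM in TL, 432 to 644 CPM in panx1a-/-, 708 to 908 CPM in panx1b-/- and 766 to 1078 CPM in the double knock-out. The panx1a-/- libraries lay below all 6 that lack an intact panx1b gene, and TL overlapped with each of the other lines.

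The 4 green opsin genes lie next to each other in the RefSeq annotation, in the order opn1mw1, opn1mw2, opn1mw3, opn1mw4, and the red pair opn1lw1 and opn1lw2 adjoin each other too. How reads that fit more than 1 copy were assigned is not stated, so that the balance between copies is uncertain. Nearly all green counts fell on opn1mw1, with 39836 over the 12 libraries, against 859 on opn1mw2, 14 on opn1mw3 and 6 on opn1mw4. The counts of opn1mw4 fell in the 3 panx1a-/- libraries only, with 2, 1 and 3. At such numbers no difference between lines was detectable for opn1mw3 and opn1mw4.

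In panx1b-/- opn1mw1 and opn1mw2 both had higher levels than in TL, with log2 fold changes of 0.51 and 0.66, neither called. The copy opn1mw2 behaved unlike its neighbour in the double knock-out, with −0.44 against TL where opn1mw1 had 0.51. It had 2.70, 2.62 and 3.07 CPM in TL, 3.23, 1.95 and 4.15 CPM in panx1a-/-, 4.42, 4.50 and 4.37 CPM in panx1b-/-, and 1.38, 2.73 and 2.05 CPM in the double knock-out, from 30 to 106 counts a library. The panx1b-/- libraries lay above all others, and the double knock-out libraries lay below all 3 of panx1b-/-.

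Between the double knock-out and panx1b-/-, which differ in the panx1a gene, 1 of 6 opsin genes was called, where 9.32% of all genes tested were. It was opn1mw2, lower in the double knock-out with a log2 fold change of −1.10 (SE 0.224, adjusted p = 0.00545), or 0.466 of its level in panx1b-/-. The log2 fold change of opn1mw1 was 0.01 (95% interval −0.29 to 0.31). In 1 of 6 genes, opn1mw2, the libraries did not overlap, against 35.7% of all genes tested. The call of opn1mw2 was lost when any 1 library other than the second double knock-out library was left out, through the cut-off on p, with fold changes of −1.11 to −0.88 and adjusted p from 0.013 to 0.0295. DESeq2 also called it (adjusted p = 0.000278). For the other abundant genes the log2 fold changes were 0.19 for opn1lw2 (95% interval −0.12 to 0.49), 0.29 for OPN1SW (0.02 to 0.56) and 0.13 for opn1sw2 (−0.11 to 0.38).

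Set against opn1mw1 in the same library, the count of opn1mw2 per 100 counts of opn1mw1 was 3.16, 1.76 and 2.31 in TL and 3.73, 1.83 and 3.18 in panx1a-/-. It was 3.25, 2.47 and 2.15 in panx1b-/- and 0.949, 1.42 and 1.11 in the double knock-out. All 3 double knock-out libraries lay below the 9 others. The first library of TL, panx1a-/- and panx1b-/- had the highest ratio of its line, and that of the double knock-out had the lowest.

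**Figure D4:**
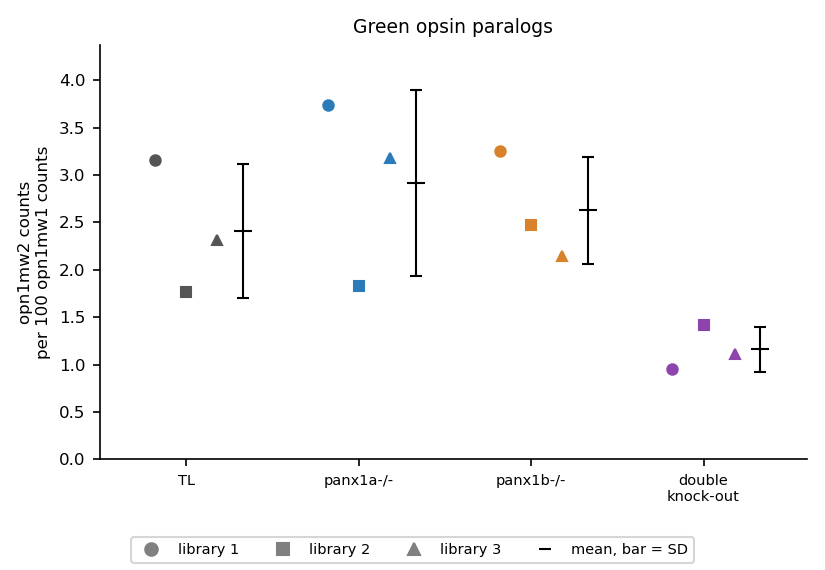
Counts of opn1mw2 per 100 counts of opn1mw1 (vertical axis) in each library, by line, with the mean and SD of each line. The ratio is 0.949 to 1.42 in the double knock-out and 1.76 to 3.73 in the other lines.

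The second red opsin, opn1lw1, was close to the detection limit, with 6, 2 and 4 counts in TL, 2, 1 and 3 in panx1a-/-, 5, 6 and 7 in panx1b-/-, and 4, 6 and 2 in the double knock-out. It did not pass in any comparison, and its log2 fold changes had standard errors of 0.5 or more. The 3 panx1a-/- libraries lay below the 3 of panx1b-/-, with a log2 fold change of −1.63 (95% interval −2.70 to −0.55, adjusted p = 0.0622).

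Libraries of a line varied in step for the abundant opsin genes. In each of the 4 lines the first library had the lowest level of opn1lw2, opn1mw1, OPN1SW and opn1sw2. Of all 21047 genes that were detected in each of the 12 libraries with a mean of 1 CPM or more, 889 (4.22%) showed this. The same was seen for 8 of 28 genes of the cone cascade, 5 of 17 of the rod cascade, 9 of 15 lens genes, 0 of 18 photoreceptor transcription factors and 0 of 10 pigment epithelium genes. The first library was the deepest of the double knock-out and the shallowest of panx1a-/-, and the part of sequencing depth was not tested. The labels number the libraries without saying what a number stands for, and the part of the first libraries in the differences between lines was not tested beyond leaving each out.

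The levels of opn1lw2, opn1mw1, OPN1SW and opn1sw2 were correlated with each other over the 12 libraries, with Pearson's r of 0.88 to 0.97, and after each line's mean was taken off, with 0.84 to 0.96. The libraries share line and collection, and these values are a description.

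The genes most like the cone opsins over the 12 libraries were sought among 20056 genes with a symbol. GNAT2, the transducin alpha subunit of cones, stood among the 5 most like each of OPN1SW (r = 0.972), opn1sw2 (0.958), opn1lw2 (0.944) and opn1mw1 (0.94). For opn1lw2 the highest was gnb3b, a transducin beta subunit gene (0.957), followed by si:dkey-66i24.8 (0.948), GNAT2, FAM89B (0.941) and RPRML (0.925). For opn1mw1 camk1db (0.964), parp6b (0.951), FAM222A (0.95) and STEAP2 (0.943) came before GNAT2. The list of OPN1SW was completed by si:dkey-66i24.8 (0.972), NRGN (0.944), gnb3b and STEAP2 (both 0.941), and that of opn1sw2 by si:dkey-66i24.8 (0.949), STEAP2 (0.942), hmgb1b (0.922) and FAM89B (0.921).

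The genes that act after the opsins were taken from a list of 28 cone cascade genes, all of which were tested. GNAT2 had means of 209 ± 32.0 CPM in TL, 168 ± 36.7 CPM in panx1a-/-, 238 ± 43.7 CPM in panx1b-/- and 260 ± 38.4 CPM in the double knock-out (SD, n = 3). That is the order of the lines seen for opn1lw2, OPN1SW and opn1sw2. It was not called in any comparison, with an adjusted p of 0.0182 for the double knock-out against panx1a-/- (log2 fold change 0.63). In that comparison 3 of 28 were called, all higher, where 2.58% of all genes tested were called higher. They were gnb3b (0.95, SE 0.143), the transducin gamma subunit GNGT2 (ENSDARG00000103543) (0.81) and the opsin kinase grk1b (0.67).

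In panx1b-/- 5 of 28 cone cascade genes were called against TL and all were lower, where 3.16% of all genes tested were called lower. The median log2 fold change of the list was −0.38, beside 0.01 for all genes tested, while the median of the 6 opsin genes was 0.38. That opsin median includes opn1lw1 and opn1mw2, which have few counts, at 0.66 each. The abundant opn1lw2, opn1mw1, OPN1SW and opn1sw2 had 0.25, 0.51, 0.08 and 0.17, and none was called. The 3 lowest were the cone channel subunit CNGA3 (ENSDARG00000012297) (−1.27), guca1d (−1.06) and guca1c (−0.93), which encode activators of guanylate cyclase. CNGA3 (ENSDARG00000012297) and guca1c were also the only 2 of 28 called in panx1a-/- against TL, at −0.63 and −0.56, where 2.89% of all genes tested were called lower. They were lower in the double knock-out as well, at −0.84 and −0.62. CNGA3 (ENSDARG00000012297) was at 11.8 to 12.6 CPM in TL, 7.01 to 8.98 CPM in panx1a-/-, 4.77 to 5.54 CPM in panx1b-/- and 6.58 to 6.99 CPM in the double knock-out, so that no mutant library reached the lowest of TL. The other CNGA3 identifier, ENSDARG00000070726, was not called in panx1a-/-, panx1b-/- or the double knock-out against TL. Its log2 fold changes there were −0.15, −0.18 and 0.07. These 3 comparisons share the TL libraries.

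In the double knock-out against TL 2 of the 28 were higher, GNGT2 (ENSDARG00000010680) at 0.64 and GNGT2 (ENSDARG00000103543) at 0.48, beside the 2 that were lower. Of all genes tested there 2.81% were called higher and 5.28% lower. Against panx1b-/- 6 of 28 were higher and none lower, where 3.84% of all genes tested were called higher. They were led by GNGT2 (ENSDARG00000010680) (1.04), the cyclase gucy2d (0.62) and RGS9 (ENSDARG00000045156) (0.60), which speeds the shut-off of transducin. Between the single knock-outs 3 were higher in panx1a-/-, led by guca1d (1.34), and 2 were lower, gnb3b (−0.71) and grk1b (−0.50). Of all genes tested between these lines 4.43% were called higher and 4.45% lower. Of the defining cone markers, PDE6C was not called in any comparison. In panx1b-/- it had a log2 fold change of −0.51 against TL (edgeR, adjusted p = 0.0445), with every library below those of TL. The cone arrestin ARR3 (ENSDARG00000056511) was lower in panx1b-/- than in TL (−0.53) and higher in the double knock-out than in panx1b-/- (0.58). The cone opsin kinase GRK7 (ENSDARG00000020602) was also higher in the double knock-out than in panx1b-/- (0.56). In panx1b-/- against TL GRK7 (ENSDARG00000020602) had −0.59 (edgeR, adjusted p = 0.0288) and was not called. Nor was the other ARR3 identifier, ENSDARG00000098475, at −0.64 (adjusted p = 0.0183). The summed level of the 28 genes was 1813 to 1899 CPM in TL, 1328 to 1719 CPM in panx1a-/-, 1310 to 1677 CPM in panx1b-/- and 1704 to 2090 CPM in the double knock-out.

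The rod cascade list held 17 genes. No gene of it was called in panx1a-/- or in the double knock-out against TL, where 5.18% and 8.09% of all genes tested were. In panx1b-/- the phosphodiesterase subunit PDE6B (ENSDARG00000011671) was higher by 0.52 and the calcium sensor RCVRN (ENSDARG00000009637) was lower, with a log2 fold change of −0.59. Of all genes tested there 2.8% were called higher and 3.16% lower. ENSDARG00000019902 has the symbol RCVRN too, with −0.15 there, and was not called. The list also holds rcvrna, and the symbol RCVRN does not tell a rod copy from another. The rod transducin GNAT1 had means of 17.7 ± 3.30, 19.1 ± 1.69, 20.4 ± 3.51 and 22.3 ± 5.47 CPM in TL, panx1a-/-, panx1b-/- and the double knock-out (SD, n = 3). It was not called in any comparison, nor were the rod arrestins saga and sagb. RCVRN (ENSDARG00000009637) was higher in the double knock-out than in panx1a-/- (0.68) and, with PDE6G (0.66), than in panx1b-/- (0.83). In these comparisons 2.58% and 3.84% of all genes tested were called higher. Between the single knock-outs PDE6G (0.60) and rom1a (0.56) were higher in panx1a-/- and rcvrna was lower (−0.49). Of all genes tested there 4.43% were called higher and 4.45% lower.

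**Figure D5:**
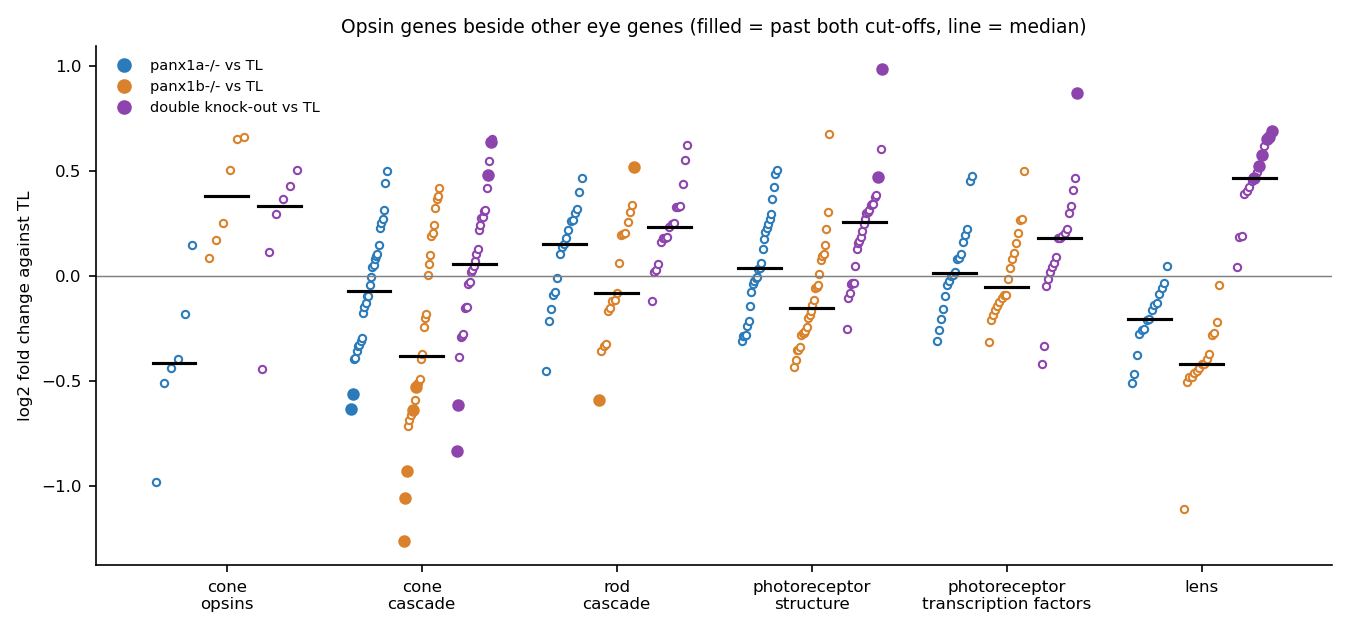
Log2 fold change against TL (vertical axis) of every tested gene of 6 lists in panx1a-/-, panx1b-/- and the double knock-out; filled points passed both cut-offs in edgeR and black lines are medians. No cone opsin point is filled, 5 cone cascade points are filled below 0 for panx1b-/-, and 6 lens points are filled above 0 for the double knock-out.

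Transcription factors that direct the choice of opsin were taken from a list of 18 genes. THRB, the thyroid hormone receptor needed for red cones in zebrafish, had means of 31.9 ± 4.23, 29.9 ± 1.72, 29.9 ± 1.49 and 31.5 ± 3.00 CPM in TL, panx1a-/-, panx1b-/- and the double knock-out (SD, n = 3), and six7, a regulator of green opsin genes, had 24.1 ± 4.78, 20.9 ± 1.70, 22.3 ± 1.14 and 28.1 ± 4.73 CPM. Neither was called in any comparison. The blue cone factor foxq2, the photoreceptor factor CRX, the rod factor nrl and both TBX2 identifiers were not called either. Of the 18 genes, 1 was called in the double knock-out against TL, where 8.09% of all genes tested were. It was NEUROD1 (0.87, SE 0.13, adjusted p = 0.00157), a factor of photoreceptor progenitors that is also expressed in other neurons and endocrine cells. NEUROD1 was higher than in panx1a-/- too (0.79), and the rod factor NR2E3 was lower there (−0.90, SE 0.189, adjusted p = 0.00932), at 1.66 to 2.13 CPM against 3.14 to 3.72 CPM. Against panx1b-/- SIX6 (ENSDARG00000031316) was higher in the double knock-out (0.50). Of all genes tested in the double knock-out 6.34% were called against panx1a-/- and 9.32% against panx1b-/-. None of the 18 was called in panx1a-/- or panx1b-/- against TL or between these, where 5.18%, 5.96% and 8.87% of all genes tested were.

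Among 26 genes of photoreceptor structure none was called in panx1a-/- or panx1b-/- against TL or between these. Of all genes tested 5.18%, 5.96% and 8.87% were called there. In the double knock-out 2 were higher than in TL, the disc rim gene prph2lb (0.99) and rp1l1b of the axoneme (0.47). Against panx1a-/- 2 were higher, impg1a of the matrix around the photoreceptors (0.58) and tulp1a (0.55). In the same comparisons 2.81% and 2.58% of all genes tested were called higher. Against panx1b-/- 7 of the 26 were higher, where 3.84% of all genes tested were called higher, led by TULP1 (0.85), prph2lb (0.77) and rp1l1b (0.66). The median log2 fold change of this list against panx1b-/- was 0.37, beside 0.07 for the 6 opsin genes and 0.01 for all genes tested.

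Genes listed for other cells of the eye differed between the lines as well. Of 15 lens genes 6 were higher in the double knock-out than in TL, 10 than in panx1a-/- and 4 than in panx1b-/-, where 2.81%, 2.58% and 3.84% of all genes tested were called higher. None was called in panx1a-/- or panx1b-/- against TL or between these, where 5.18%, 5.96% and 8.87% of all genes tested were. The largest changes against TL were those of the crystallins crygmxl2 (0.69), crygmx (0.66) and crybgx (0.65). The summed lens level was 2417 to 2957 CPM in TL, 1911 to 2774 CPM in panx1a-/-, 1208 to 2795 CPM in panx1b-/- and 3400 to 4111 CPM in the double knock-out. All 3 double knock-out libraries were thus above the 9 others in lens genes, while their 4 abundant cone opsins separated from panx1a-/- alone, and the part of eye size or lens content in the opsin differences was not tested.

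Of 10 pigment epithelium genes 3 were lower in the double knock-out than in TL, where 5.28% of all genes tested were called lower. They were RPE65 (ENSDARG00000007480) (−0.69), which regenerates the visual chromophore, rlbp1b (−0.62) and the pigment gene DCT (−0.61). The libraries are of whole larvae, so the levels of these genes need not come from the eye alone. The RPE65 identifiers ENSDARG00000054420 and ENSDARG00000094752 had −0.04 and 0.07 and were not called. Of the 3 lower genes rlbp1b was also lower than in panx1b-/- (−0.69), where 5.48% of all genes tested were called lower. No gene of the list was called in the other comparisons of lines, where 5.18% to 8.87% of all genes tested were. Of 13 inner retina genes 2 were higher in the double knock-out than in panx1a-/-, where 2.58% of all genes tested were called higher. They were GRM6 (ENSDARG00000025671) (0.53), the glutamate receptor of ON bipolar cells, and rlbp1a of Müller glia (0.45). The other GRM6 identifier, ENSDARG00000017742, was not called. No inner retina gene was called in the other comparisons of lines, where 5.18% to 9.32% of all genes tested were. Of 7 pineal genes tested 1 was called in panx1a-/- against TL, where 5.18% of all genes tested were. It was ASMT, the last enzyme of melatonin synthesis, which was higher (1.05, SE 0.218, edgeR, adjusted p = 0.013) at a mean of 2.51 CPM. Of the 7 genes 3 had higher and 4 had lower levels. The other asmt identifier, asmt2, had 0.36 (adjusted p = 0.42) and TPH2 had −0.45 (adjusted p = 0.131), and neither was called. The summed pineal level was 21.7 to 31.3 CPM over the 12 libraries.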

How the data were processed

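For each library the authors deposited raw counts, a whole number of reads for each Ensembl gene, without normalization or pooling. The submitters' processing notes name bcl2fastq 2.17, FastQC 0.11.2, Trim Galore 0.4.4, TopHat2 2.0.11, HTSeq 0.6.1p2 and danRer11 without stating their roles, and the paper's methods name RSEM with bowtie2 and DESeq2 on transcripts. The strand setting and the handling of reads that fit several genes are not given in the sources used here. Symbols were matched for 28223 of 31261 identifiers (90.3%), and gene order was read from RefSeq (GRCz12tu).

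The lines compared were fitted by themselves with edgeR 4.0.16 (TMM, glmQLFit, glmQLFTest) under R 4.3.3, and a gene needed a minimum of 1 count in each of these libraries. The interaction used all 12 libraries. A gene was called at an adjusted p under 0.05 and a p under 0.001. Intervals (95%) are 1.96 standard errors on either side. They are narrower than edgeR's test allows with 3 libraries a line, so some leave out 0 where its p is over 0.05. An exact two-sided permutation test of 3 libraries against 3 cannot go below p = 0.1. Likeness was Pearson's r of log2(CPM + 0.5). DESeq2 1.42.0 was an alternative, beside other normalizations, filters, cut-offs, the replicate block and each library left out. In simulated counts for the double knock-out against panx1a-/-, 178 of 200 genes changed 2-fold (89%) were recovered and 19 others called among 24586. For the interaction 114 of 200 (57%) were recovered, with 3 others among 24037. In these counts each gene varied independently, and the changed genes were drawn from those with a mean of at least 1 CPM. Smaller changes, changes in genes of lower level such as opn1lw1, and the comparisons with TL were not simulated, so the recovery does not extend to them.

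The opsin genes, the lists and the markers were chosen with earlier results of these data known. Some opsin genes are not reported here. All cone opsin genes are named, and of the lists the markers and the called genes with the 3 largest changes in each direction, beside further called genes chosen after their values were seen. Sequences and transcript lengths were not used here. Figures were drawn with matplotlib 3.10.9.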

Additional observations from a re-analysis of the deposited data

Results flagged for a closer look

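Of the opsin genes 0 of 6 passed the test of whether the double knock-out differs from the sum of the single knock-outs, and 15 of 138 genes of the other lists did, where 5.33% of all genes tested did (edgeR over all 12 libraries, both cut-offs). At an unadjusted p under 0.05 there were 4 of the 6 opsin genes, and DESeq2 called 0. With the library number as a block in the fit 3 of the 6 were called. The values are log2 interactions, positive where the double knock-out lay above the sum of the single changes. In the cone cascade they were 1.07 for CNGA3 (ENSDARG00000012297), 1.01 for gucy2d, 0.88 for guca1c, 0.79 for GNGT2 (ENSDARG00000010680) and 0.76 for pde6ha. In the rod cascade list the value was 1.28 for RCVRN (ENSDARG00000009637), whose symbol does not tell a rod copy from another. Among the structural genes they were 0.94 for PRPH2 (ENSDARG00000038018), 0.85 for impg1a, 0.73 for CDHR1 (ENSDARG00000004643) and 0.73 for tulp1a, and among the transcription factors 0.65 for SIX6 (ENSDARG00000031316). In the lens they were 1.67 for CRYAA, 1.39 for crygmxl2 and 1.28 for BFSP2. The only negative value was −1.15 for PANX1 (ENSDARG00000014910), which had 5.80 ± 1.12 CPM in TL, 8.20 ± 0.665 CPM in panx1a-/-, 6.40 ± 0.654 CPM in panx1b-/- and 4.08 ± 0.598 CPM in the double knock-out (SD, n = 3).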

How the results depend on the processing

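The number of opsin genes called moved with the cut-off, the tool and the library left out, and little with the normalization, which shifted the median of all genes by at most 0.036 on the log2 scale. Between the double knock-out and panx1a-/- 4 were called, 3 with all 12 libraries in one fit, and 1 to 4 with a library left out. Against panx1b-/- the double knock-out had 1, and 0 to 1 with a library left out. Between the single knock-outs 1 was called, against 3 with DESeq2, 2 without a minimum count, 4 by the adjusted p alone and 0 to 3 with a library left out. For panx1a-/- against TL 0 were called and 0 to 1 with a library left out, for panx1b-/- against TL 1 by the adjusted p alone, and for the interaction 1 by the adjusted p alone and 0 to 1 with a library left out. The number called over all genes moved too. Between the single knock-outs it was 2209, against 2704 with DESeq2, 2646 without a minimum count and 4404 by the adjusted p alone. By the adjusted p alone it was 2744 for panx1b-/- against TL (1482 in the main fit) and 2249 for the interaction (1292).

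Over all genes, deviations of same-numbered libraries had r from −0.192 to 0.35, in 0 of 6 line pairs was every r over 0.1, and 14 of 36 times a library was most correlated with its own number in another line. The numbers were therefore not taken as pairs, although the first libraries of TL, panx1b-/- and the double knock-out had r of 0.195 to 0.35 and were all lowest in the 4 abundant opsin genes. With the replicate block the number called was 4 between the single knock-outs, 1 in panx1b-/- against TL, 1 in the double knock-out against TL (opn1mw1 in both), 3 in the interaction, and 4 in the double knock-out against panx1a-/-, as without it. Over all genes, in the same order, the block gave 2559, 1665, 2361, 1443 and 1393 calls. The main fits gave 2209, 1482, 2015, 1292 and 1583.

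Of 550 alternatives for single opsin genes, 509 kept the direction and the side of the cut-offs, 15 lost a call, 21 gained a call and 5 changed sign. Those 5 were fold changes of genes that were not called and all came from leaving out a library. The gene opn1mw2 ranged from −0.134 to 0.402 in panx1a-/- against TL, OPN1SW from −0.0534 to 0.197 in panx1b-/- against TL, and opn1mw1 from −0.148 to 0.141 in the double knock-out against panx1b-/-. The cause was not tested. Of 64 alternatives for the class shares 63 stayed within the SD of the line. Leaving out a library cannot move the mean of a line by its SD, so those alternatives were bound to stay within it. Only the use of the most abundant gene of each class could fall outside. The green share of panx1a-/- was 20.2% with the most abundant gene of each class alone, where it was 20.7 ± 0.309%. Shares per kilobase of coding length were not run, since transcript lengths were not used here. Depth limits opn1lw1, opn1mw3 and opn1mw4. Nothing in the labels says that pools were raised apart, and p-values measure the spread between these pools alone.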
